A study of Mus musculus with 12 samples.

Results

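The expression of 10 genes of macrophages and other myeloid cells, Csf1r, Lyz2, C1qa, C1qb, C1qc, Vcam1, Hmox1, Fabp4, Saa3 and Nos2, was examined in RNA from splenic CD8 T cell preparations. They are 10 of the 20778 gene symbols in the count table and were chosen by name. Fabp4, Saa3 and Nos2 were selected on their large changes in these same libraries, so their values are given as a description with no test. The other 7 were chosen as macrophage genes with earlier results of these data known, so a direction that they share is no independent support for it. All 10 passed the low-count filter, Saa3 and Nos2 through the treated groups, as they were at or near 0 in Naïve.

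Spleens of C57BL/6 mice (6 weeks old by the labels) were the source of the CD8 T cells, which were enriched on magnetic beads and then cultured for 6 hours. The 4 groups were left untreated (Naïve) or received an antibody to CD3, which signals for the T cell receptor (αCD3, 1 µg/ml), the cytokine interferon gamma (IFNγ, 70 ng/ml) or bacterial lipopolysaccharide, a ligand of Toll-like receptor 4 (LPS, 1 µg/ml). The unit of the αCD3 and LPS doses is uncertain, since another label gives them in mg/ml. Each group had 3 mRNA libraries, 12 in all, with 10196248 to 27610175 counts each. The methods of the study put its mice at an older age, so the age is uncertain, and no source says whether the 3 libraries of a group came from separate mice, so p-values measure the spread between these libraries, which may be technical.

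Red pulp macrophages of the spleen take up senescent red blood cells, break down their heme and recycle the iron. Their survival depends on signals through the receptor encoded by Csf1r, and they carry adhesion molecules such as VCAM1. Macrophages are also a main source of C1q, which starts the classical complement pathway, and they respond to bacterial products and to IFNγ with inflammatory genes such as Nos2.

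Libraries of bead-enriched cells hold RNA of every cell that stayed in the preparation, and the data were checked for this. All 10 T cell markers on the list passed the filter, with Cd8a at a mean of 279 and Cd8b1 at 352 CPM (counts on a library size common to all). Summed over each list, however, 10 B cell markers reached 3414 to 3720 CPM in Naïve and 10 T cell markers 1760 to 1964 CPM. The list named for red pulp macrophages held 14 genes, some of which, such as Marco and Siglec1, are also genes of other spleen macrophages. These 14 genes summed to 173 to 270 CPM in Naïve, and 12 of them passed the filter and had counts in all 12 libraries. Among the 12 were Axl at a mean of 43.2, Adgre1 at 42.9, Slc40a1 at 32.3, Cd5l at 21.6 and Spic at 11.6 CPM. The other 2 fell under the filter, Vsig4 at 0 in 10 of 12 libraries and Cd163 with a mean of 0.33 CPM. In bulk RNA, fewer macrophages and less RNA of a gene per macrophage cannot be told apart.

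**Figure D1:**
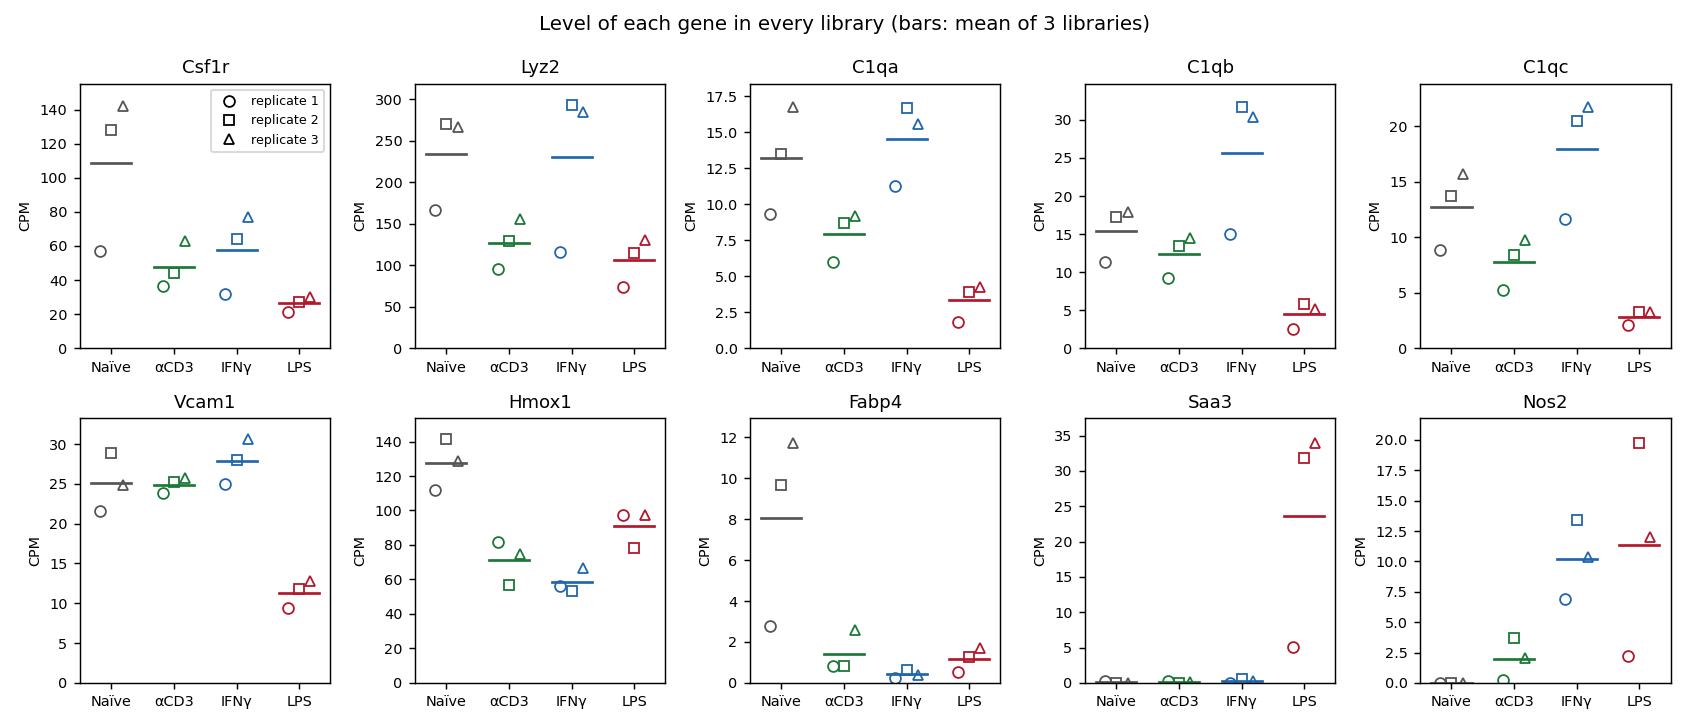
CPM (vertical axis, linear and starting at 0) of each of the 10 genes in every library of the 4 groups, with circles, squares and triangles for replicates 1, 2 and 3 and bars for the group mean. Vcam1 and the C1q genes are lowest in the LPS libraries, Hmox1 is highest in Naïve, and Saa3 is near 0 except in LPS, where replicate 1 lies at 5.01 CPM and the other libraries at 31.8 and 33.9 CPM.

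To compare levels between genes, CPM was divided by the summed length of a gene's exons in kb. In Naïve, Lyz2 had the highest level per length, 178 ± 44.7 CPM per kb (SD, n = 3), followed by Hmox1 with 72.9 ± 8.47. Csf1r with 18.9 ± 7.91, C1qb with 14.2 ± 3.31 and C1qa with 12.7 ± 3.59 CPM per kb followed and did not differ beyond their spread. Lower levels per length were found for C1qc, 6.60 ± 1.84, Vcam1, 2.83 ± 0.41, and Fabp4, 1.80 ± 1.05 CPM per kb. This grouping depended on the length used, since by the longest protein-coding transcript they stood at 10.6 ± 2.95, 7.23 ± 1.06 and 9.01 ± 5.24 CPM per kb, and C1qc and Fabp4 then lay within the spread of C1qa and C1qb. Saa3 was highest in LPS on this scale, at 9.05 ± 6.18 CPM per kb, while Nos2 stood at 2.57 ± 1.99 in LPS and 2.32 ± 0.74 CPM per kb in IFNγ, which did not differ beyond their spread.

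Csf1r encodes the receptor for the growth factor CSF1, on which macrophages and monocytes depend. It overlaps Hmgxb3 in the annotation, and 85.1% of its 31-base words are unique to it, so some of its reads could be assigned elsewhere. Naïve libraries held 56.8, 128 and 142 CPM of Csf1r in replicates 1, 2 and 3. The αCD3 libraries held 36.7, 43.8 and 63.1, the IFNγ libraries 31.9, 63.9 and 77.0, and the LPS libraries 21.5, 27.3 and 30.2 CPM. Every LPS library was below every library of the other groups, while αCD3 and IFNγ overlapped Naïve only through its replicate 1. Such gaps were common, as the LPS libraries lay below all others in 6.94% of the 12122 tested genes, and lay wholly below Naïve in 27.4%, with 23.8% wholly below Naïve in αCD3 and 15.4% in IFNγ. Of the 7 genes not picked on their changes, 5 were below all others in LPS, and 7 in LPS, 3 in αCD3 and 1 in IFNγ were wholly below Naïve. Compared with Naïve, Csf1r fell by 2.04 ± 0.40 (SE) on the log2 scale in LPS (adjusted p = 0.00186) and by 1.19 ± 0.38 in αCD3 (adjusted p = 0.0307). The αCD3 call was lost without Naïve replicate 2, Naïve replicate 3, αCD3 replicate 1 or αCD3 replicate 2 (adjusted p of 0.0878 to 0.109), and without the count filter (adjusted p = 0.0587). In IFNγ the log2 fold change was -0.92 ± 0.38 (adjusted p = 0.156), with the replicate number as a block it was -0.91 (adjusted p = 0.00667), and without Naïve replicate 1 it was -1.23 (adjusted p = 0.0457).

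Lyz2 encodes lysozyme M, an antibacterial enzyme of macrophages, monocytes and neutrophils (chr10:117277331-117282321, minus strand). Only 67.2% of its 31-base words are unique, since it shares sequence with Lyz1, so its counts could be divided between both genes. Its levels were 167, 270 and 267 CPM in Naïve, 95.2, 129 and 156 in αCD3, 116, 293 and 284 in IFNγ, and 73.1, 115 and 130 CPM in LPS. All αCD3 and LPS libraries were below all Naïve libraries, whereas IFNγ spanned the Naïve range. Lyz2 fell by 1.14 ± 0.36 on the log2 scale in LPS (adjusted p = 0.0227), a call that was lost without Naïve replicate 2 or 3 or LPS replicate 1 or 2 (adjusted p of 0.0522 to 0.0747). The log2 fold change in αCD3 was -0.89 ± 0.36 (adjusted p = 0.0713), and -0.88 with the replicate block (adjusted p = 0.00117). It was also called lower by DESeq2 (-0.90, adjusted p = 0.0239), with library size alone (-1.004, adjusted p = 0.0379) and without IFNγ replicate 1 (-0.89, adjusted p = 0.0239). In IFNγ it was -0.02 (adjusted p = 0.979).

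C1qa, C1qb and C1qc encode the A, B and C chains of C1q, which are assembled into 1 protein. They lie side by side within 18.7 kb on the minus strand of chromosome 4 (GRCm38), C1qb at chr4:136880129-136886187, C1qc at chr4:136889804-136893065 and C1qa at chr4:136895917-136898803. The 250 bases before the RefSeq start of C1qb (chr4:136886201-136886450, minus strand, GRCm38.p6) are shown because all 3 genes were lower in LPS, with capitals for a match to the antioxidant response element TGACNNNGC on the opposite strand.
C1qb: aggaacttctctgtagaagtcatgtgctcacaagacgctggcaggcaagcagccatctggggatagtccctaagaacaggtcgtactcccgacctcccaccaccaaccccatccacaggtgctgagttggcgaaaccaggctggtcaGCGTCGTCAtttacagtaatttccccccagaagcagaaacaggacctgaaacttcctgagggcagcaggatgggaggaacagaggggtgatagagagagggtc
This match began at position -103, counted from -1 just before the start, and overlapped no other motif searched. Of 32851 mouse promoters of that length, 10.2% held the motif on either strand. A match is only a description of these letters and no evidence of binding.

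Naïve libraries held 9.31, 13.5 and 16.8 CPM of C1qa, αCD3 libraries 5.96, 8.69 and 9.18, IFNγ libraries 11.3, 16.7 and 15.6, and LPS libraries 1.84, 3.87 and 4.26 CPM. Levels of C1qb were 11.3, 17.2 and 17.9 CPM in Naïve, 9.17, 13.5 and 14.4 in αCD3, 15.0, 31.7 and 30.4 in IFNγ, and 2.56, 5.80 and 5.15 CPM in LPS. C1qc stood at 8.82, 13.7 and 15.7 CPM in Naïve, 5.22, 8.36 and 9.75 in αCD3, 11.7, 20.4 and 21.7 in IFNγ, and 2.04, 3.28 and 3.22 CPM in LPS. For all 3 genes the LPS libraries lay below every other library, and replicates 2 and 3 of IFNγ held the highest levels of C1qb and C1qc. Against Naïve, the log2 fold changes in LPS were -1.97 ± 0.32 for C1qa (adjusted p = 5.76e-04), -1.76 ± 0.36 for C1qb (adjusted p = 0.00253) and -2.14 ± 0.34 for C1qc (adjusted p = 5.02e-04). All 3 were called lower, and these calls held in each alternative and with each library left out.

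In αCD3 the log2 fold changes against Naïve were -0.74 ± 0.30 for C1qa (adjusted p = 0.0707), -0.33 for C1qb (adjusted p = 0.460) and -0.73 ± 0.31 for C1qc (adjusted p = 0.0882). With the replicate block they were -0.72, -0.32 and -0.72 with adjusted p of 0.00117, 0.0486 and 1.83e-04, so all 3 were then called lower. C1qa was also called lower by DESeq2 (adjusted p = 0.0479), by limma-voom (adjusted p = 0.0451), with library size alone (adjusted p = 0.0349), and without Naïve replicate 1 (adjusted p = 0.0380) or LPS replicate 1 (adjusted p = 0.0353). C1qc was also called lower with library size alone (adjusted p = 0.0440) and without Naïve replicate 1 (adjusted p = 0.0456). In IFNγ they were 0.14 for C1qa (adjusted p = 0.820), 0.73 ± 0.33 for C1qb (adjusted p = 0.195) and 0.49 ± 0.31 for C1qc (adjusted p = 0.355). The block turned C1qb (0.69, adjusted p = 0.00210) and C1qc (0.48, adjusted p = 0.00508) into calls higher in IFNγ, and C1qa stayed uncalled.

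Ratios within a library, which were chosen after the values were seen, describe how the C1q genes moved relative to Csf1r. The summed C1q counts divided by the Csf1r count were 0.518, 0.347 and 0.355 in Naïve, 0.554, 0.696 and 0.528 in αCD3, 1.19, 1.08 and 0.880 in IFNγ, and 0.300, 0.474 and 0.418 in LPS. All IFNγ libraries lay above all libraries of the other groups, and LPS overlapped Naïve. With Lyz2 in place of Csf1r the order differed, as the ratio was 0.164 to 0.189 in Naïve, 0.214 to 0.237 in αCD3, 0.235 to 0.327 in IFNγ and 0.0881 to 0.112 in LPS. By this ratio LPS lay wholly below Naïve, and IFNγ overlapped αCD3. The share of C1qa in the summed C1q counts was 30.5% to 33.3% in Naïve, 27.5% to 29.3% in αCD3, 23.0% to 29.7% in IFNγ and 28.6% to 33.8% in LPS, so αCD3 and IFNγ both lay wholly below Naïve. Within groups the 3 chains varied together over the 12 libraries, with Pearson's r of deviations from group means of 0.931 for C1qa with C1qb, 0.908 for C1qa with C1qc and 0.948 for C1qb with C1qc. These values come from libraries that share a replicate number and a depth across genes.

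**Figure D2:**
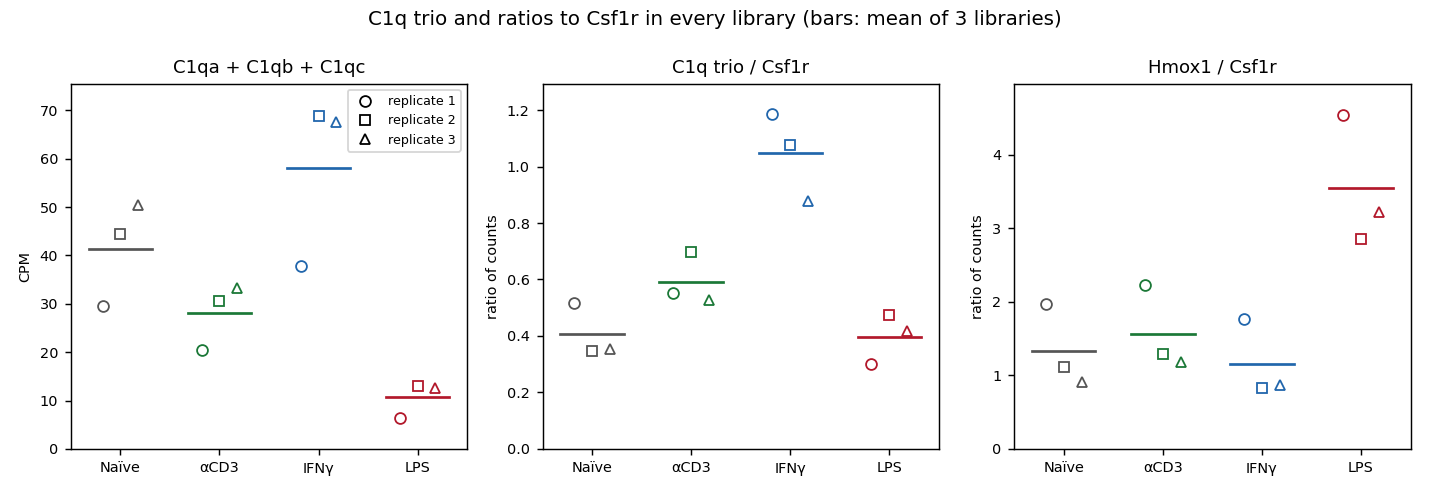
Summed CPM of C1qa, C1qb and C1qc, and ratios of counts to Csf1r (linear axes from 0), in every library of the 4 groups, with bars for the mean of 3 libraries. The C1q to Csf1r ratio of the 3 IFNγ libraries, 0.880 to 1.19, lies above all others, and the Hmox1 to Csf1r ratio is highest in LPS, at 2.86 to 4.54.

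Vcam1 encodes an adhesion molecule of macrophages and endothelial cells that binds the integrin made of Itga4 and Itgb1 (chr3:116109949-116129688, minus strand, overlapped by the predicted gene Gm43109). Its levels were 21.5, 28.9 and 24.8 CPM in Naïve, 23.8, 25.2 and 25.7 in αCD3, and 24.9, 28.04 and 30.6 CPM in IFNγ. LPS libraries held 9.41, 11.9 and 12.8 CPM, below all libraries of the other 3 groups, which overlapped. Vcam1 fell by 1.13 ± 0.14 on the log2 scale in LPS (adjusted p = 7.60e-05), while its log2 fold changes were 0.15 in IFNγ (adjusted p = 0.522) and -0.01 in αCD3 (adjusted p = 0.973). Endothelial markers, 10 genes, summed to 390 to 868 CPM in Naïve and 301 to 843 CPM in LPS, but most of this was Pecam1, which leukocytes also express, with a mean of 590 CPM in Naïve and 606 in LPS. Kdr, the VEGF receptor of endothelial cells, had means of 5.38 CPM in Naïve and 16.7 in LPS (log2 fold change 1.68, adjusted p = 0.0670). Other endothelial genes went either way in LPS, and none was called in the fit without the replicate block. Their log2 fold changes were -0.98 for Plvap, -0.53 for Cdh5, 0.85 for Flt1, 0.09 for Egfl7 and 0.07 for Eng. The part of endothelial cells in the level of Vcam1 was not tested.

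Hmox1 encodes heme oxygenase 1, the inducible enzyme that breaks down heme (chr8:75093621-75100589, plus strand). Naïve libraries held 112, 142 and 129 CPM, αCD3 libraries 81.8, 56.7 and 74.8, IFNγ libraries 56.3, 53.1 and 66.5, and LPS libraries 97.5, 78.1 and 97.4 CPM. Each treated library was below each Naïve library, as in 15.4% of all tested genes for IFNγ, 23.8% for αCD3 and 27.4% for LPS, taken 1 treatment at a time. Hmox1 fell by 1.12 ± 0.15 on the log2 scale in IFNγ (adjusted p = 0.00112), by 0.84 ± 0.15 in αCD3 (adjusted p = 0.00135) and by 0.49 ± 0.15 in LPS (adjusted p = 0.0187). The LPS call was lost without Naïve replicate 2 or LPS replicate 2 (adjusted p of 0.0699 and 0.0787). In contrast to Csf1r, Lyz2, Vcam1 and the C1q genes, Hmox1 was higher in LPS than in IFNγ (log2 fold change of IFNγ over LPS -0.63, adjusted p = 0.00626). Its deviations within groups had an r of -0.13 to -0.03 with those of the C1q genes over the 12 libraries.

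Fabp4 encodes a fatty acid binding protein of adipocytes, macrophages and endothelium and is a known target of PPARγ (chr3:10204088-10208576, minus strand). It was picked for its fall, so its values are a description. Naïve libraries held 2.78, 9.70 and 11.7 CPM, αCD3 libraries 0.811, 0.827 and 2.58, IFNγ libraries 0.243, 0.619 and 0.390, and LPS libraries 0.511, 1.26 and 1.69 CPM. All treated libraries were below all Naïve libraries, although the lowest Naïve library and the highest αCD3 library were close. IFNγ libraries rested on 3, 7 and 4 counts. The log2 fold changes against Naïve were -4.25 ± 0.73 in IFNγ, -2.77 ± 0.64 in LPS and -2.56 ± 0.62 in αCD3.

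Saa3 encodes serum amyloid A3, an acute phase protein that macrophages make after bacterial stimulation (chr7:46711998-46715700, minus strand). Its upstream sequence (chr7:46715701-46715926, minus strand, GRCm38.p6) is shown because the gene was near 0 except after LPS. It runs from position -250 to -25 before the RefSeq start and leaves out the bases that GENCODE counts as part of the gene. Capitals mark, in order, matches to a part of the κB motif, GGNNNTTCC on the opposite strand, to a part of the interferon-stimulated response element, GAAANNGAA, and to the C/EBP motif, TTGCNNAA on the opposite strand.
Saa3: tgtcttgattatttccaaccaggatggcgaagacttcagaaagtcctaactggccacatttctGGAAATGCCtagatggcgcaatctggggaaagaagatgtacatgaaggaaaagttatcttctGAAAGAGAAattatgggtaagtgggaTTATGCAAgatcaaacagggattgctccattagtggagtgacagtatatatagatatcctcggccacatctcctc
These matches began at positions -187, -125 and -99, counted from the RefSeq start, and did not overlap. The same κB part was matched at position -103 of Lyz2, on both strands, although Lyz2 fell in LPS, and none of the motifs searched was found in the 250 bases before the start of C1qc. Over 32851 promoters, windows of 250 bases, longer than the one shown, held the 3 motifs on either strand in 15.7%, 7.13% and 9.56%.

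Saa3 counts were 6, 0 and 0 in Naïve, 6, 0 and 1 in αCD3, 0, 6 and 2 in IFNγ, and 49, 378 and 422 in LPS. In CPM the LPS libraries stood at 5.01, 31.8 and 33.9, and no library of the other groups exceeded 0.531. LPS replicate 1 was far below the other LPS libraries but above every library of the other groups. The log2 fold change of LPS over Naïve was 7.55 ± 1.06 and rests on the 6 counts of Naïve replicate 1, without which all Naïve libraries were at 0 and no fold change is given.

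Nos2 encodes inducible nitric oxide synthase, which macrophages express after LPS or IFNγ (chr11:78920787-78960254, plus strand). Its counts were 0 in all 3 Naïve libraries. They were 7, 45 and 25 in αCD3 (0.247, 3.72 and 2.01 CPM), 85, 152 and 106 in IFNγ (6.88, 13.4 and 10.3 CPM), and 22, 235 and 149 in LPS (2.25, 19.8 and 11.98 CPM). Every treated library held more than every Naïve library. LPS replicate 1 lay within the αCD3 range and below IFNγ replicate 1, and LPS replicate 3 lay within the IFNγ range. The log2 fold change of IFNγ over LPS was -0.16 without and 0.23 with the replicate block, so no order of these groups is given. Against a floor of 3 counts in each Naïve library, the mean level was at least 54.5-fold higher in IFNγ, at least 60.4-fold higher in LPS and at least 10.6-fold higher in αCD3, which covers counting error only. Without αCD3 replicate 2 the αCD3 limit was 6.03-fold, and without LPS replicate 2 the LPS limit was 38.0-fold.

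Counts of calls were made over the 7 genes not picked on their fold changes. In LPS against Naïve 7 of 7 were called lower and 0 higher, where 22.3% of the 12122 tested genes were called lower and 26.9% higher. None of the 7 was higher in LPS or αCD3 at an unadjusted p under 0.05, by DESeq2 or by limma-voom, the counts being 0 each time. In αCD3 against Naïve 2 of 7, Csf1r and Hmox1, were called lower and 0 higher, where 15.7% of all tested genes were lower and 22.9% higher. With the replicate block 6 of 7 were called lower in αCD3, all but Vcam1, where 24.2% of all tested genes were lower and 28.1% higher. In IFNγ against Naïve 1 of 7, Hmox1, was called lower and 0 higher, where 4.27% of all tested genes were lower and 8.17% higher, and with the block 2 were called lower and 2 higher, where 11.4% were lower and 13.5% higher. DESeq2 and limma-voom called 0 higher in IFNγ, and 1 gene, C1qb, was higher at an unadjusted p under 0.05. The median log2 fold change of the 7 genes was -1.76 in LPS, -0.74 in αCD3 and 0.14 in IFNγ, beside -0.01, -0.02 and -0.02 over all tested genes.

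**Figure D3:**
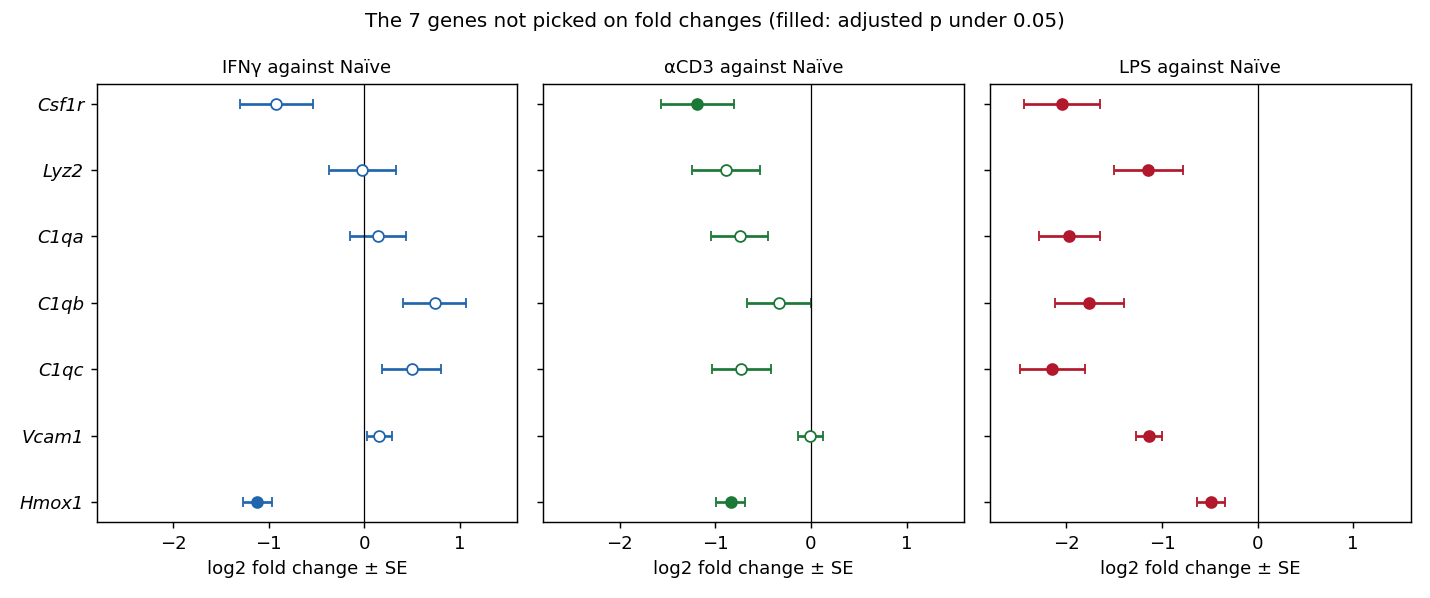
Log2 fold change against Naïve (horizontal axis, bars for the SE of the fit, n = 3 libraries a group) of the 7 genes not picked on fold changes, with filled points for an adjusted p under 0.05 in the fit without the replicate block. All 7 points are filled and below 0 in LPS, while in IFNγ Hmox1 alone is filled and the C1q points lie at 0.14 to 0.73.

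The direct comparisons of treatments tell which of these levels differed between them. In IFNγ, 3 of 7 genes were called higher than in αCD3 and 0 lower, C1qa by 0.88 (adjusted p = 0.0396), C1qb by 1.06 (adjusted p = 0.0291) and C1qc by 1.22 (adjusted p = 0.0108) on the log2 scale, where 15.8% of all tested genes were higher and 21.4% lower. The C1qa call was lost without Naïve replicate 2, without any one of the αCD3 libraries or without IFNγ replicate 2 or 3 (adjusted p of 0.0561 to 0.123). The C1qb call was lost without αCD3 replicate 1 or 2 or IFNγ replicate 2 or 3 (adjusted p of 0.0587 to 0.104), and the C1qc call held throughout. C1qa was not called without the count filter either (adjusted p = 0.0517), and 0 of 7 genes were lower by DESeq2, by limma-voom or at an unadjusted p under 0.05. Without αCD3 replicate 2, however, Hmox1 was called lower in IFNγ (-0.42, adjusted p = 0.0421). Lyz2 had a log2 difference of 0.87 (adjusted p = 0.0812) and was called higher in IFNγ by DESeq2 (0.88, adjusted p = 0.0279), with the block (0.79, adjusted p = 0.00211) and without IFNγ replicate 1 (1.19, adjusted p = 0.0116).

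Against LPS, 6 of 7 genes were called higher in IFNγ and 1, Hmox1, lower, where 18% of all tested genes were higher and 22.4% lower. C1qc differed by 2.64 (adjusted p = 1.35e-04), C1qb by 2.49 (adjusted p = 3.30e-04), C1qa by 2.11 (adjusted p = 4.17e-04) and Vcam1 by 1.29 (adjusted p = 3.49e-05) on the log2 scale. Lyz2 (1.12, adjusted p = 0.0295) and Csf1r (1.12, adjusted p = 0.0431) were the weakest of the 6. The Lyz2 call was lost without IFNγ replicate 2 or 3 or LPS replicate 1 or 2 (adjusted p of 0.0649 to 0.0999), and the Csf1r call without IFNγ replicate 2 or 3, any one of the LPS libraries, Naïve replicate 2 or αCD3 replicate 2 (adjusted p of 0.0536 to 0.143). Without the count filter both were lost (adjusted p of 0.0584 and 0.0825), and Csf1r also by limma-voom (adjusted p = 0.103).

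In αCD3, 4 of 7 genes were called higher than in LPS and 0 lower, where 9.64% of all tested genes were higher and 9.76% lower. The log2 differences were 1.13 for Vcam1 (adjusted p = 3.21e-04), 1.42 for C1qc (adjusted p = 0.0162), 1.43 for C1qb (adjusted p = 0.0204) and 1.23 for C1qa (adjusted p = 0.0234). The C1qa call was lost without αCD3 replicate 2 or 3 or LPS replicate 2, the C1qb call without αCD3 replicate 2 or 3 or LPS replicate 1 or 3, and the C1qc call without αCD3 replicate 3 (adjusted p of 0.0501 to 0.0747 over these). By limma-voom all 3 C1q calls were lost (adjusted p of 0.0711 to 0.0971), leaving Vcam1. Hmox1 was lower in αCD3 at an unadjusted p under 0.05, and DESeq2 and limma-voom called 0 lower. Csf1r differed by 0.85 (adjusted p = 0.159), and by 0.88 with the block (adjusted p = 0.00895).

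Replicate 1 was often the lowest library of its group for these genes. In all 4 groups it held the lowest level of Csf1r, Lyz2, C1qa, C1qb, C1qc, Vcam1 and Fabp4, whereas Hmox1 was lowest in replicate 1 of 1 group. The share of all tested genes with this pattern was not counted, so it is not shown to be particular to these genes. The summed level of 7 erythroid markers moved the same way, at 337 to 571 CPM in the replicate 1 libraries and 1297 to 4117 CPM in the others. So did the sums of the red pulp macrophage, monocyte and macrophage, heme, iron and Nrf2 target, and inflammatory macrophage lists. The T cell sum was lowest in replicate 1 of 1 group and the B cell sum in none, and the part of these cells in the levels of these genes was not tested. Without replicate 1 of any group, an alternative chosen after seeing the data, 7 of 7 genes were again called lower in LPS than in Naïve, where 25.9% of all genes tested in that fit were lower and 29.2% higher. In αCD3 6 of 7 were then lower, beside 22.1% of all genes lower and 26.7% higher. In IFNγ 2 were higher, C1qb and C1qc, and 2 lower, Csf1r and Hmox1, beside 11.8% of all genes higher and 11.5% lower.

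Other genes of the same cells and pathways were counted in lists, against Naïve, with the count under the replicate block in the same sentence where it differed by over 1.5 times. They are read beside the share of all tested genes called, 26.9% higher and 22.3% lower in LPS, 22.9% and 15.7% in αCD3, and 8.17% and 4.27% in IFNγ. Of 12 tested red pulp macrophage genes 7 fell and 1 rose in LPS (2 rose with the block), 4 fell in αCD3 (with 1 higher under the block) and 3 fell in IFNγ (with 2 higher under the block), with medians of -1.02, -0.58 and -0.38 on the log2 scale. Cd5l, a secreted macrophage protein, fell by 2.92 ± 0.15 in LPS to 4.98 ± 0.18 CPM (SD, n = 3) and by 0.98 ± 0.13 in αCD3. Itgad, an integrin chain of red pulp macrophages, fell by 2.85 ± 0.25 in LPS, the phagocytic receptor kinase Mertk fell by 2.23 ± 0.36, and the mannose receptor Mrc1 fell by 2.66 ± 0.32 (adjusted p of 0.000553 or less for these 4 in LPS). Mrc1 also fell by 1.30 ± 0.28 in αCD3. In IFNγ Mrc1 fell by 1.38 ± 0.29 (adjusted p = 0.0110, and 0.0528 without IFNγ replicate 2) and Cd5l fell by 0.60 ± 0.13 (adjusted p = 0.0115, and 0.0535 and 0.0544 without Naïve replicates 2 and 3). The gene that rose in LPS was Spic, a transcription factor of red pulp macrophages, from 12.1 ± 1.25 CPM in Naïve to 19.9 ± 5.82 CPM, by 0.72 ± 0.25 on the log2 scale (adjusted p = 0.0301). This call was lost with library size alone and without Naïve replicate 1 or 2 or LPS replicate 2 or 3 (adjusted p of 0.0791 to 0.112). In IFNγ Spic fell by 1.05 ± 0.26 (adjusted p = 0.0232), a call lost without Naïve or IFNγ replicates 2 or 3 (adjusted p of 0.05003 to 0.0998).

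Among 24 monocyte and macrophage genes, 9 fell and 3 rose in LPS (14 and 6 with the block), 7 fell and 2 rose in αCD3 (14 fell with the block), and 3 fell and 5 rose in IFNγ (8 fell with the block). The transcription factor gene Cebpa fell by 2.78 ± 0.37 on the log2 scale in LPS, and by 1.32 ± 0.33 in αCD3. Fcgr4, an Fc receptor, rose by 2.68 ± 0.44 in IFNγ to 30.0 ± 6.92 CPM (adjusted p = 0.00332). Ly6c2, a surface protein gene that is not confined to monocytes, rose by 1.98 ± 0.40 in IFNγ and 1.99 ± 0.40 in LPS. The summed level of this list was 1307 to 2260 CPM in Naïve, 1247 to 2200 in αCD3, 2167 to 3409 in IFNγ and 1675 to 2551 CPM in LPS. Within a replicate number it was higher than Naïve in 3 of 3 IFNγ and 3 of 3 LPS libraries and lower in 3 of 3 αCD3 libraries. This sum leaned on a few genes with high levels. Mpeg1 had means of 395 CPM in Naïve, 970 in IFNγ and 632 in LPS, and Ctss 379, 652 and 479 CPM. The median log2 fold change of the list was -0.09 in IFNγ and -0.71 in both LPS and αCD3. The part of the sum in the levels of the 7 genes was not tested.

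Lipid handling genes and PPARγ targets, 12 tested, fell in 8 cases in LPS, 5 in αCD3 (with 1 higher) and 2 in IFNγ. Lpl, lipoprotein lipase, fell by 3.86 ± 0.35 on the log2 scale in LPS to 4.19 ± 0.95 CPM (adjusted p = 1.58e-05), and the scavenger receptor Cd36 by 2.61 ± 0.44. Apoe, a lipid carrier, fell by 1.42 ± 0.13 in LPS and by 0.79 ± 0.13 in αCD3. The medians of this list were -1.06, -0.75 and -0.35 in LPS, αCD3 and IFNγ, and the picked gene Fabp4 is not in these counts.

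Of 16 other complement genes 4 fell and 2 rose in LPS (4 rose with the block), 4 fell in αCD3 (with 3 higher under the block), and 1 fell and 2 rose in IFNγ (3 and 5 with the block). C1ra, the protease that acts with C1q, rose by 1.90 ± 0.32 in IFNγ and by 1.53 ± 0.31 in LPS, the opposite direction from the C1q genes in LPS. Cd93, a receptor first described for C1q, fell by 2.43 ± 0.21 in LPS, 1.28 ± 0.19 in αCD3 and 1.26 ± 0.19 in IFNγ. Among 16 heme, iron and Nrf2 target genes beside Hmox1, 4 rose and 4 fell in LPS, 1 rose and 6 fell in αCD3, and 1, Nqo1, fell in IFNγ (3 higher and 3 lower with the block). In LPS the 4 of 16 complement genes that fell, and the 4 of 16 heme and iron genes in each direction, were near the share of all tested genes. Slc7a11, the cystine transporter, and Txnrd1, thioredoxin reductase 1, rose by 0.87 ± 0.14 and 0.71 ± 0.13 in LPS, where Hmox1 fell.

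Of 11 tested nitric oxide and arginine genes 3 rose and 2 fell in LPS (4 fell with the block), 3 rose and 2 fell in αCD3, and 0 were called in IFNγ by the quasi-likelihood test of edgeR (1 in each direction with the block, 0 higher and 1 lower at an unadjusted p under 0.05 and by DESeq2, and 0 by limma-voom). Slc7a1, an arginine transporter, rose by 1.22 ± 0.09 in αCD3 and by 1.29 ± 0.09 in LPS. Of 17 tested inflammatory macrophage genes 14 rose and 0 fell in LPS, 3 rose and 2 fell in αCD3 (5 and 5 with the block), and 3 rose and 1 fell in IFNγ (5 and 2 with the block). The median log2 fold change of this list was 2.02 in LPS, -0.05 in αCD3 and 0.19 in IFNγ. In LPS the neutrophil-attracting chemokine gene Cxcl1 rose by 4.21 ± 0.61, the cytokine gene Il1a by 3.93 ± 0.55, Ptgs2, the prostaglandin-making enzyme, by 3.71 ± 0.68, and Lcn2, which binds bacterial siderophores, by 3.20 ± 0.32. Saa1 was at 0 in all 12 libraries, unlike its relative Saa3.

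**Figure D4:**
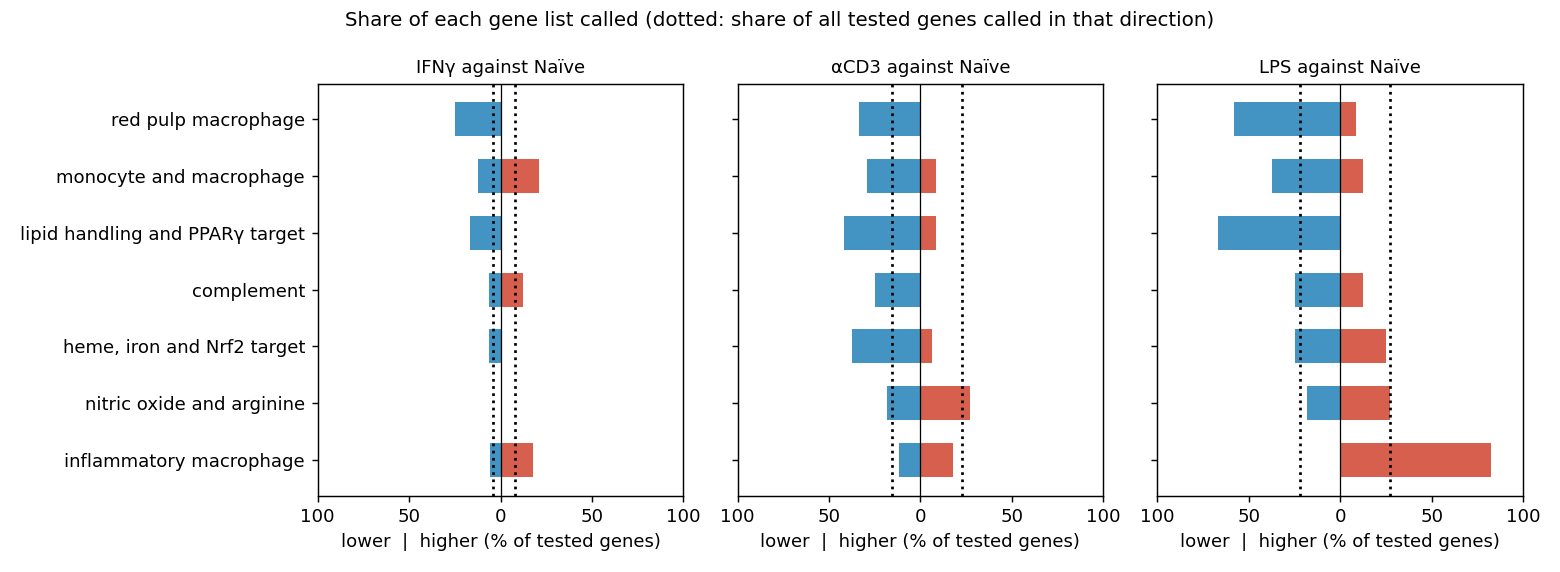
Percent of the tested genes of 7 lists that were called lower (left, blue) and higher (right, red) against Naïve in each treatment, with dotted lines at the percent of all tested genes called in that direction. Inflammatory macrophage genes, 14 of 17 higher, and red pulp macrophage genes, 7 of 12 lower, point opposite ways in LPS.

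Partners of Csf1r and Vcam1, 4 tested, had 2 genes lower in αCD3 and 2 in LPS, namely Itga4 and Itgb7, which encode integrin chains, and 0 called in IFNγ by edgeR (2 higher with the block, by DESeq2 and at an unadjusted p under 0.05, and 1 higher by limma-voom). Calls of Itgb7 were lost in some alternatives, and those of Itga4 were not. Of the markers of other cells, T cell genes (10) had 7 lower in LPS, 5 higher and 1 lower in αCD3, and 0 called in IFNγ by edgeR (2 in each direction with the block, 1 in each by DESeq2, 0 by limma-voom, and 2 higher and 1 lower at an unadjusted p under 0.05). B cell genes (10) had 3 lower and 1 higher in LPS (3 higher with the block), 5 lower in αCD3 and 2 lower in IFNγ. Of 9 tested neutrophil genes 2 were lower in LPS and 2 in αCD3 (4 and 6 with the block) and 0 were called in IFNγ by edgeR, DESeq2 or limma-voom or at an unadjusted p under 0.05. Of 9 tested dendritic cell genes 1 was higher and 1 lower in LPS (5 lower with the block), 2 lower in αCD3 (5 with the block) and 2 lower in IFNγ. Of 6 NK cell genes 1 was lower in LPS (3 with the block, and 1 higher), 1 higher in αCD3 (1 lower with the block) and 1 higher in IFNγ. The gene higher in αCD3 and IFNγ was Eomes, which is not confined to NK cells. Eomes had a mean of 109 CPM over the 12 libraries, beside 2.53 to 4.29 CPM for the rest of this list. Erythroid genes (7) and stromal genes (4) had 0 called against Naïve by edgeR, DESeq2 or limma-voom, and 0 at an unadjusted p under 0.05, but with the block 5 erythroid genes were called higher in IFNγ and 3 in LPS. Endothelial genes (7) had 0 called by edgeR without the block, while at an unadjusted p under 0.05 there was 1 higher in IFNγ, 1 higher in LPS, and 2 higher and 1 lower in αCD3, and with the block there were 2 higher in IFNγ, 3 higher in αCD3, and 2 higher and 1 lower in LPS. DESeq2 called 1 endothelial gene higher in IFNγ and 1 lower in αCD3, and limma-voom called 1 higher in αCD3.

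With a single library left out, the number of genes called lower in LPS was 7 to 8 on the red pulp macrophage list, 7 to 10 on the lipid handling list and 6 to 13 on the monocyte and macrophage list, and 14 inflammatory macrophage genes were called higher each time. In αCD3 the number lower was 2 to 4, 3 to 9 and 4 to 11 on the first 3 of these lists, and in IFNγ it was 1 to 3, 0 to 2 and 0 to 6. Such ranges are not given here for the other lists, so how far their counts depend on single libraries is not shown. The summed T cell level fell from 1760 to 1964 CPM in Naïve to 1451 to 1660 CPM in LPS, and the summed red pulp macrophage level stood at 127 to 150 CPM there, both without overlap with Naïve. The B cell sum, 3414 to 3720 CPM in Naïve, was also wholly lower in LPS (2052 to 3073), αCD3 (2391 to 2776) and IFNγ (2734 to 2839 CPM), and the T cell sum was wholly higher in αCD3 (2364 to 2555 CPM). The part of these cells in the levels of the 10 genes was not tested.

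By Pearson's r of log2 CPM over the 12 libraries, given as a description, the tested genes most like the C1q chains were Fcna for C1qa (0.973), Adap2 for C1qb (0.952) and Ctsh for C1qc (0.970). Fcna was also second for C1qb (0.951). Vcam1 was most like Erp29 (0.980), with the red pulp marker Mertk (0.974) and Lpl (0.973) next, and Csf1r was most like Grk3 (0.974). Lyz2 was most like Hebp1 (0.963), Hmox1 most like Tmem176b (0.953), and Fabp4 most like F13a1 (0.952). Nos2 was most like D17Wsu92e (0.991), followed by the interferon-induced genes Cxcl10 (0.990) and Tap1 (0.986), and Saa3 was most like Tspan3 (0.962). Libraries of a group share their treatment and libraries of a replicate number deviate together, and both enter these values. For deviations from group means r was 0.985 for Nos2 with Tap1, 0.948 for Lyz2 with Hebp1, 0.936 for Csf1r with Grk3 and 0.917 for C1qa with Fcna, but 0.664 for Vcam1 with Erp29 and 0.667 for Saa3 with Tspan3.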

How the data were processed

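The authors aligned the reads with Kallisto to mm10 and deposited estimated counts, which name genes by symbol, for each of the 12 libraries, with neither pooling nor scaling. The Kallisto version, the annotation and the use of strand are not given in the sources used here, and the submitters' notes name DESeq2 1.24.0. Expected counts were rounded to whole numbers. Genes were filtered with filterByExpr (12122 of 20778 kept), scaled with TMM and tested in edgeR 4.0.16 (R 4.3.3) with its quasi-likelihood test in a single fit of all libraries with group as the only term. Benjamini-Hochberg adjustment covered all tested genes, and genes with an adjusted p under 0.05 are referred to as called. Fold changes are given with their SE, and CPM uses TMM-scaled library sizes. Library totals of 10196248 to 27610175 counts limit the precision of genes with few counts, and a floor of 3 counts per library stands in for 0. Alternatives were DESeq2 1.42.0, limma-voom (limma 3.58.1), other scalings, no count filter, the replicate number as a block and each library left out. The script was tested on simulated data.

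Same-numbered libraries deviated together from their group means (Pearson's r of 0.117 to 0.401 over all pairs, and 12 of 12 libraries correlated best with their own number), so the numbers were taken to pair the samples. The pairing comes from these data and the replicate numbers, as the labels do not say what a number marks. Genes, lists and tests were chosen with earlier results of these data known. All 10 genes are named, with at most 4 called genes per list and direction of largest log2 fold change, of which those called in every alternative could be reported (some are not reported here), and the 3 most similar tested genes. Genes outside this rule were named after their values were seen. Coordinates, exon lengths and the 31-base words come from GENCODE M21 (GRCm38) and promoters from RefSeq, whose table matched 4 of the 10 genes.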

Additional observations from a re-analysis of the deposited data

How the results depend on the processing

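Of the 7 genes not picked, the number called against Naïve in αCD3 was 4 by DESeq2, 5 with library size alone, 1 without the count filter and 6 with the replicate block, and 1 to 6 with libraries left out. In IFNγ against Naïve it was 4 with the block and 1 to 4 with libraries left out. It was 1 to 4 for IFNγ against αCD3, and 1 to 5 for αCD3 against LPS, where limma-voom gave 1. In LPS against Naïve it was 5 to 7, and in IFNγ against LPS 5 to 7. The 6 counts with all replicates 1 left out, and the ratios within libraries, were chosen after seeing the data. The replicate block changed no call of the 7 genes other than those given above.

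Signs turned only for uncalled values near 0. For C1qa in IFNγ against Naïve the log2 fold change was -0.0046 with library size alone and -0.0639 to 0.35 with a library left out, turning without Naïve replicate 1. For Lyz2 in the same comparison it was -0.2295 to 0.2906 with a library left out, turning without Naïve replicates 2 or 3 or IFNγ replicate 1, and 0.0875 without all replicates 1. For Vcam1 in αCD3 against Naïve it was 0.0108 by limma-voom, 0.0058 with the block, and -0.1066 to 0.1041 with a library left out, turning without Naïve replicate 2 or αCD3 replicate 1. The cause was not tested.

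Library size alone moved the median log2 fold change of all genes to -0.16 in IFNγ, -0.13 in αCD3 and -0.22 in LPS against Naïve. Calls higher and lower were then 715 and 1564 in IFNγ (990 and 518 with TMM), 2095 and 2667 in αCD3 (2775 and 1906), 2140 and 4380 in LPS (3265 and 2709), and 1691 and 766 in αCD3 against LPS (1168 and 1183). With the block they were 1642 and 1378 in IFNγ against Naïve. Low counts limit Fabp4 in IFNγ, Saa3 outside LPS, and Nos2 in Naïve and αCD3.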
